A study of Homo sapiens with 44 samples.

Results

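The oxidative phosphorylation system is built from subunits of 2 genomes, and the rows compared here are its subunit genes. A row of the count tables was a member if its name started with MT- or matched the symbol roots of the nuclear subunits (NDUFA, NDUFB, NDUFC, NDUFS, NDUFV and NDUFAB1; SDHA to SDHD; UQCR; COX4 to COX8; ATP5). This gave 103 of 19923 rows, of which 13 were mitochondrially encoded and 90 were nuclear. The mitochondrial genes supply 7 subunits of complex I, 1 of complex III, 3 of complex IV and 2 of complex V. The nuclear rows comprised 37 of complex I, 4 of complex II, 9 of complex III, 17 of complex IV and 19 of complex V. NDUFA4 and NDUFA4L2 were kept apart as a pair, because NDUFA4 carries a complex I name while its protein is a subunit of complex IV, and 2 read-through rows were kept apart as well. The rule used names and no measured value. Of the 103 members, 7 were too low to be tested in any comparison: COX7B2, COX6A2, COX7A1, COX8C, ATP5MGL and the read-through rows ATP5MF-PTCD1 and NDUFC2-KCTD14.

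The RNA came from Kelly and NGP, established human neuroblastoma lines that the labels give as wild type in genotype and MYCN-amplified. Cultured cells received STM2457, a small-molecule inhibitor of the m6A methyltransferase METTL3, at 8 µM, or DMSO. Kelly was sampled after 1 day and after 6 days, NGP after 6 days. Subcutaneous Kelly tumours in male and female nude mice were given vehicle (labelled DMSO) or 50 mg/kg STM2457 by intraperitoneal injection each day for 14 days. Each condition had input libraries, made from sonicated poly(A) RNA, and m6A antibody pulldown libraries (RIP). There were 3 libraries in each group of cultured cells and 2 in each xenograft group, 44 in all.

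Electrons from NADH and succinate enter the chain at complexes I and II, pass through complex III and cytochrome c to complex IV, and the proton gradient built on the way drives ATP synthesis at complex V. Complex II is wholly nuclear encoded, whereas the other complexes combine core subunits made on mitochondrial ribosomes with imported subunits. Mitochondrial mRNAs are cut from long polycistronic transcripts inside the organelle. METTL3 writes m6A on nuclear transcripts as they are made, and the mark is known to bear on the stability and translation of an mRNA.

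The sequences below show why reads cannot always be given to 1 member, and where the letters of the METTL3 consensus occur in some members. Such letters do not show that a base is methylated. MT-ATP8 lies at chrM:8366-8572 on the plus strand (GRCh38, as in the deposited tables), is 207 bases long, and shares its last 46 bases, in capitals, with MT-ATP6. MT-ND4L and MT-ND4 share 7 bases, in capitals, printed with the flanking bases of chrM:10745-10781. Fragments on such shared bases count for neither gene.
MT-ATP8: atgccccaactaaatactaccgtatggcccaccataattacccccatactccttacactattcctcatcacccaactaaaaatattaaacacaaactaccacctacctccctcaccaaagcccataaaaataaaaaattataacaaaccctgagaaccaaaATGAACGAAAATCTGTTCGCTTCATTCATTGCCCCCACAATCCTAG
MT-ND4L/MT-ND4 junction: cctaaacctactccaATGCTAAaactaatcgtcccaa
METTL3 methylates adenosines in a short consensus, searched here in the sense strand as GGACN with any last base but G, and a match is given in capitals. The coding sequence of NDUFC1 (chr4:139292550-139295798, minus strand) and that of COX8A (chr11:63974681-63976320, plus strand) held no match. The first 300 of the 561 coding bases of NDUFB8 (chr10:100523837-100529851, minus strand) held 4. These spliced coding sequences come from the canonical transcripts of GENCODE 44 on GRCh38.
NDUFC1: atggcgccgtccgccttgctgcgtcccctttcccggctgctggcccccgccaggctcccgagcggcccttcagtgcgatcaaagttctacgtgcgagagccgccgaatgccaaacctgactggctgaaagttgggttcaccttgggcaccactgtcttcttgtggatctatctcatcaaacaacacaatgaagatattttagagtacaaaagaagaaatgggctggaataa
COX8A: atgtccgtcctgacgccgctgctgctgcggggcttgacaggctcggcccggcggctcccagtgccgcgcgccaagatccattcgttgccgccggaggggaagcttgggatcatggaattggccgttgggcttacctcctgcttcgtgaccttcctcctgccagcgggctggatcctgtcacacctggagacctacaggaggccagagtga
NDUFB8: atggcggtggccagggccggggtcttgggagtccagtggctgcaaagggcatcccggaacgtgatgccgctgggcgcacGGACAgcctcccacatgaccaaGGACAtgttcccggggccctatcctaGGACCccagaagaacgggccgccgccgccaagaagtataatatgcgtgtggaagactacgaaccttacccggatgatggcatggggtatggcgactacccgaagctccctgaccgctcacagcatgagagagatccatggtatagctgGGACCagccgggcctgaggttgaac
Over canonical transcripts, the consensus occurred a median of 1 time in the 13 mitochondrial genes, 3 times in 88 nuclear members and 10 times in 18999 genes of the tables. Per kilobase the medians were 0.96, 3.0 and 3.25 in the same order, so the nuclear members were close to all genes. The consensus was missing from 5 mitochondrial and 6 nuclear members. The nuclear members are short: their median mRNA had 750 bases against 2946 for all genes, and their median longest exon 293.5 bases against 1521. Mitochondrial mRNAs are uninterrupted, with a median of 784 bases.

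The depth ran from 2.14 to 36.5 M assigned fragments per library, and it was lowest in the xenograft inputs (2.14 to 7.27 M), which limits what could be detected there. Each of 11 noradrenergic neuroblastoma markers had at least 1 fragment in every library, but TH was at only 0.0626 to 4.02 CPM in NGP, against 470 to 1841 CPM in the Kelly and xenograft inputs. Of 16 markers of stroma and blood, 4 to 13 were at 0 in each library and their summed level was 65.7 to 297 CPM, the count scaled to the library's total of assigned fragments. No source used here says how mouse reads were treated in the xenograft. Libraries that stood apart were STM2457 input replicate 3 of Kelly at 6 days (5.77 M), DMSO input replicate 2 of NGP (5.59 M), and the xenograft RIP libraries, which differed several-fold within both groups. The labels do not say whether replicates were separate cultures or animals, so p-values measure the spread between these samples, which may be technical.

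Transcripts from the mitochondrial genome were far more abundant than those of the nuclear partners. In DMSO inputs, the median level over the 13 mitochondrial genes was 8594 TPM (a level per base of exon, scaled to the library) in 1-day Kelly, 9446 in 6-day Kelly, 6612 for NGP and 16685 for the xenograft. The median over nuclear members was 139, 158, 120 and 68.9 TPM, and over all detected genes 11.6, 6.51, 10.0 and 7.89 TPM. With the canonical transcript in place of all annotated exons as the length, the distance was smaller in each experiment, for example 4892 against 217 TPM in Kelly at 1 day. The most abundant mitochondrial mRNA differed between the experiments: MT-CO2, a core subunit of complex IV, in 1-day Kelly (21792 ± 802 TPM, SD, n = 3), MT-CO1 in 6-day Kelly (20006 ± 348 TPM, n = 3), MT-ND1 of complex I for NGP (13388 ± 4159 TPM, n = 3) and MT-CO3 for the xenograft (38011 ± 1690 TPM, n = 2). In NGP the next in order, MT-CO1 at 13044 ± 1783 TPM, did not differ from MT-ND1 beyond the spread. Sequence of at least 98% identity elsewhere in the genome covered all of MT-ND2, MT-CO1 and MT-ATP6, 70.0% of MT-CO3 and 36.8% of MT-ND1, so the order among mitochondrial genes is uncertain.

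Among nuclear members, the complex I accessory subunit NDUFS5 was among the highest, at 1760 ± 61.1 TPM in Kelly at 1 day and 3322 ± 224 TPM at 6 days. SDHB, the iron-sulphur subunit of succinate dehydrogenase, led complex II with 187 ± 8.5 and 218 ± 8.0 TPM. UQCRH, the hinge protein of complex III, stood at 997 ± 77.3 and 2266 ± 38.0 TPM. ATP5F1B, the catalytic beta subunit of ATP synthase, stood at 1932 ± 7.4 and 562 ± 18.9 TPM. NDUFA7 was among the lowest complex I members, at 3.1 ± 0.6 and 1.2 ± 0.4 TPM. SDHA, the flavoprotein partner of SDHB, was measured at only 19.8 ± 1.8 TPM in Kelly at 1 day and 2.0 ± 0.1 TPM at 6 days, and 21.6% of its exon bases overlap another gene.

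Levels of single subunits differed widely between the 1 day and 6 day controls of the same line. Of 81 nuclear members with a mean of at least 5 CPM, 7 were at least 4-fold higher and 7 at least 4-fold lower at 6 days (17.3%), against 6.98% of 10680 genes. COX5B, a nuclear subunit of complex IV, was at 66.9 ± 2.0 CPM at 1 day and 647 ± 13.7 CPM at 6 days. MT-ND6, the complex I gene on the other strand of the mitochondrial genome, was at 340 ± 4.8 and 2243 ± 26.2 CPM. COX6A1 went the other way, from 181 ± 15.5 to 27.2 ± 3.8 CPM. Counting used no strand option, so the values of MT-ND6 here and below can include fragments from the opposite strand of its locus. Time, library preparation and any batch cannot be told apart in this comparison, so no test is given and the experiments are described one by one.

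**Figure D1:**
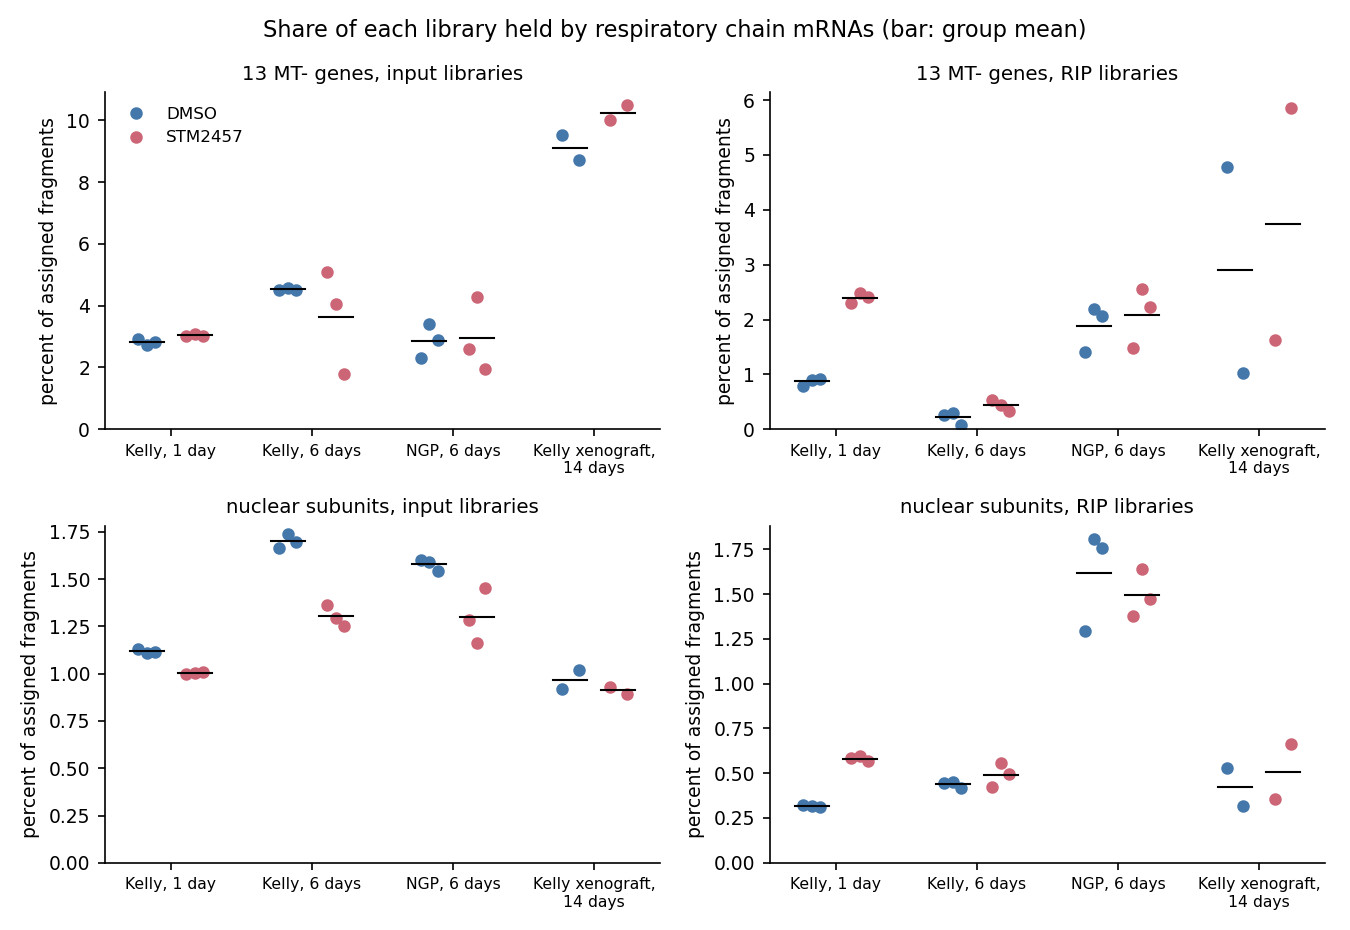
Share of assigned fragments (percent) held by the 13 mitochondrial genes and by the nuclear members in every input and RIP library, by experiment and treatment; each point is 1 library. In the inputs the nuclear share lay lower with STM2457 than with DMSO in each culture experiment, while the mitochondrial share of Kelly at 6 days spread from 1.79% to 5.09% under STM2457.

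The share of the input taken by the mitochondrial genes was slightly higher after 1 day of METTL3 inhibition, and that of the nuclear members was lower in each culture experiment. In Kelly at 1 day the mitochondrial genes held 2.91%, 2.71% and 2.81% of fragments under DMSO and 3.02%, 3.09% and 3.003% under STM2457. The nuclear members held 1.13%, 1.11% and 1.12% under DMSO and 1.001%, 1.005% and 1.012% under STM2457. In both cases the groups did not overlap. In Kelly at 6 days the nuclear share went from 1.67%, 1.74% and 1.70% to 1.37%, 1.29% and 1.25%. In NGP it went from 1.60%, 1.59% and 1.54% to 1.29%, 1.16% and 1.45%. A drop in a share cannot separate less RNA per cell from fewer cells that express it.

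Of the 13 mitochondrial genes, 5 rose and 0 fell in Kelly at 1 day, where 9.41% of all 13246 genes tested rose and 8.06% fell (edgeR quasi-likelihood test, adjusted p under 0.05 here and below). MT-ATP8, a small subunit of the membrane part of ATP synthase, was at 462, 476 and 538 CPM under DMSO and 602, 612 and 536 CPM under STM2457. Its groups just overlapped, through STM2457 replicate 3, and the log2 change was 0.22 ± 0.06 (SE, adjusted p = 0.011). MT-CYB, the cytochrome b of complex III, was at 1781, 1654 and 1686 CPM and then at 1924, 1919 and 1931 CPM, a rise of 0.15 ± 0.04 (adjusted p = 0.0125) with no overlap. MT-ATP6 (0.14 ± 0.04), MT-CO1 (0.12 ± 0.04) and MT-CO2 (0.11 ± 0.04) were the other genes that rose. None of the 7 complex I genes passed the test; they ranged from -0.06 for MT-ND5 to 0.11 for MT-ND4L. These are rises of under 20%: the median over the 13 genes was 0.10, against 0.01 for all genes. The count of genes that rose rested on single libraries: it was 0 without STM2457 replicate 1, 1 without STM2457 replicate 2, 2 without DMSO replicate 3 or STM2457 replicate 3, 3 without DMSO replicate 2, 7 without DMSO replicate 1 and 3 by DESeq2. The median stayed between 0.07 and 0.11 in these fits.

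In Kelly at 6 days 1 mitochondrial gene fell and 0 rose, and STM2457 replicate 3 stood apart in several genes. Of all 12773 genes tested there, 14.7% fell and 11.9% rose. MT-ND1 was at 2662, 2611 and 2677 CPM under DMSO and at 2347, 1959 and 900 CPM under STM2457, a log2 change of -0.71 ± 0.22 (adjusted p = 0.022) with no overlap. MT-CYB was at 6048, 6004 and 6162 CPM under DMSO and at 6760, 5602 and 886 CPM under STM2457. MT-ND6 was at 2273, 2236 and 2222 CPM and then at 2298, 2047 and 231 CPM. In both, replicate 3 was far below every other library, whereas replicates 1 and 2 were close to the controls. MT-CO2, MT-CO3 and MT-ATP8 lay much closer to the controls in replicate 3: MT-ATP8 was at 586 CPM in replicate 3 and at 639, 648 and 501 CPM under DMSO. The median change over the 13 genes was -0.56 with all libraries and -0.14 without replicate 3, when 5 genes were called down. Without STM2457 replicate 1 it was -0.90 with 10 called down. The count was 0 by DESeq2 and without any 1 DMSO replicate, and 9 with no low-count filter.

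In NGP 0 of 13 mitochondrial genes were called by edgeR or by DESeq2, and 0 had an unadjusted p under 0.05. Here 2.07% of all 12289 genes tested rose and 2.16% fell. Their log2 changes ran from -0.50 ± 0.25 for MT-ND1 to 0.26 ± 0.24 for MT-ND5. The libraries of each treatment differed widely: MT-ND5 was at 2775, 3929 and 3436 CPM under DMSO and at 3656, 6688 and 2436 CPM under STM2457, so that both groups overlapped.

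In the xenograft all 13 mitochondrial genes had a positive log2 change and none was called. No gene at all was called there (0% rose and 0% fell of 11329 tested by edgeR; 968 had an unadjusted p under 0.05). The median change was 0.31, and 8 of the 13 had an unadjusted p under 0.05. DESeq2 called 8 of them up. The genes from MT-CO3 to MT-CYB along the map changed by 0.31 to 0.61, those from MT-ND1 to MT-ATP6 by 0.03 to 0.25. MT-CYB was at 10469 and 9270 CPM under vehicle and at 12810 and 13400 CPM under STM2457, with no overlap and a log2 change of 0.53 ± 0.08 (adjusted p = 0.212). MT-ATP8 was at 2382 and 2045 CPM and then at 1765 and 2481 CPM, which overlapped. CPM are per library total while the fit scales libraries by TMM factors, so small changes can differ in sign between them, as for MT-CO1 (19201 against 18736 CPM on average, log2 change 0.09 ± 0.05).

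**Figure D2:**
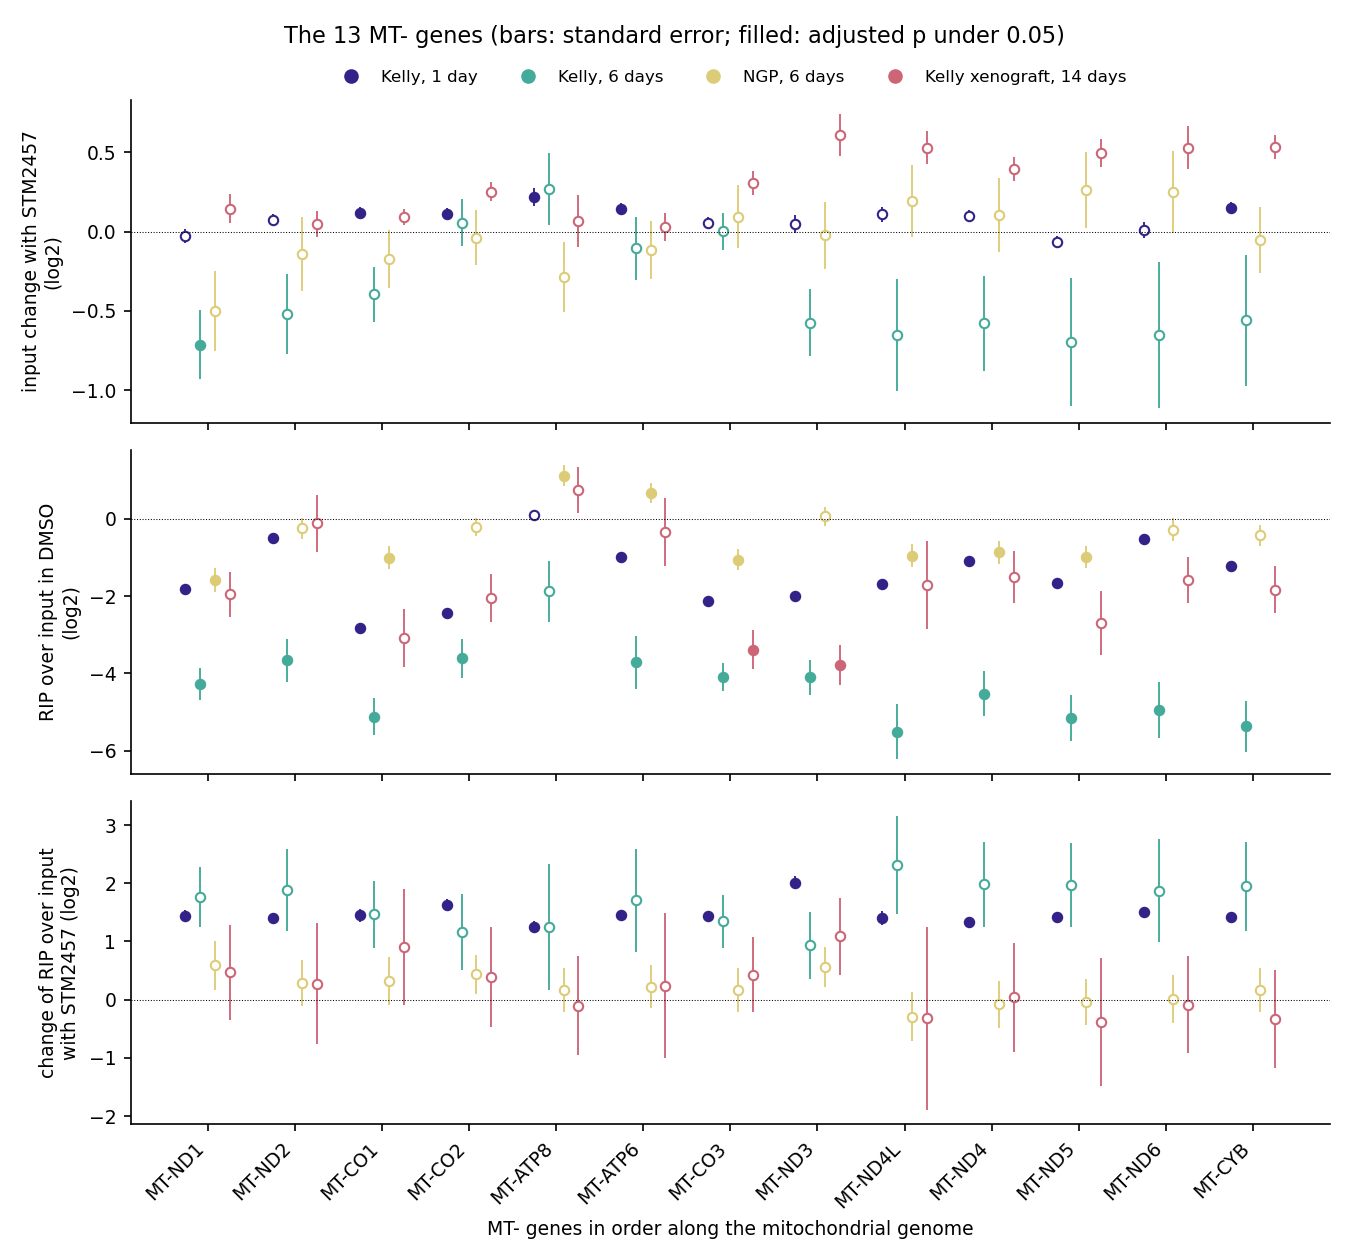
The 13 mitochondrial genes in map order on the horizontal axis, with log2 values and SE bars on the vertical axis in 3 panels: change of the input with STM2457, RIP over input in DMSO, and change of RIP over input with STM2457; colours are the 4 experiments, and filled points passed the test. In the middle panel MT-ATP8 is the highest of the 13 genes in each experiment, from -1.87 in Kelly at 6 days to 1.12 in NGP.

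In culture, the nuclear subunits that passed the test mostly fell. In Kelly at 1 day 38 of 83 tested fell and 1 rose, with a median log2 change of -0.20. In Kelly at 6 days 56 of 82 fell and 1 rose, with a median of -0.46. In NGP 16 of 82 fell and 0 rose, with a median of -0.38. The medians over all genes were 0.01, 0.00 and 0.01, and the shares of all genes called are those given above. Across the 3 experiments 69 of 83 nuclear members fell in at least 1, against 18% of all genes tested. Both Kelly times had 26 of 82 in common, against 4.37% of all genes tested at both, and both lines at 6 days had 11 of 81, against 1.18%. No member was called in opposite directions in 2 of them. Counts of both genomes rested partly on single libraries: the 44 members called in Kelly at 1 day were 28 without STM2457 replicate 1, and the 16 in NGP were 2 without STM2457 replicate 1 and 9 without DMSO replicate 2.

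**Figure D3:**
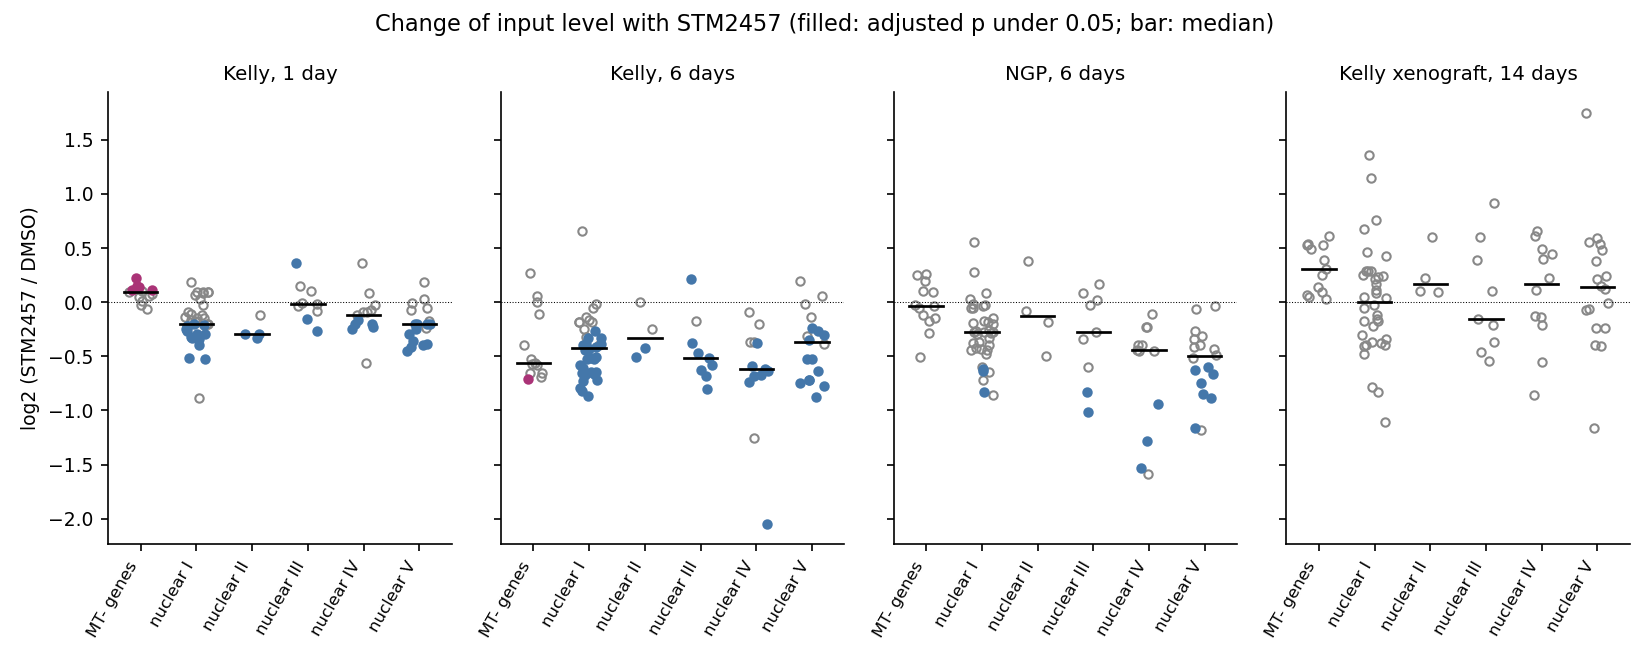
Log2 change of the input with STM2457 over DMSO (vertical axis) for every tested member by complex and genome of origin, 1 panel per experiment; filled points passed the test, bars are medians, and NDUFA4, NDUFA4L2 and read-through rows are not drawn. Nuclear members of each complex lie mostly below 0 in the culture panels, with medians of -0.20, -0.46 and -0.38, and on both sides of 0 in the xenograft.

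Complex I, which takes electrons from NADH, lost 16 of 37 tested nuclear members in Kelly at 1 day, 25 of 36 at 6 days and 3 of 37 in NGP. The largest falls that passed the test at 1 day were those of NDUFA13 and NDUFB4, both accessory subunits. NDUFB4 was at 95.8, 87.9 and 94.6 CPM under DMSO and at 67.6, 63.3 and 66.8 CPM under STM2457, a log2 change of -0.52 ± 0.06 (adjusted p = 2.3e-05) with no overlap. NDUFA13 fell by 0.52 ± 0.09 (adjusted p = 0.00064), from 40.1, 50.8 and 43.8 CPM to 32.999, 30.2 and 32.0 CPM. At 6 days NDUFB2 (-0.87 ± 0.09) and NDUFA3 (-0.67 ± 0.06) fell too, although neither had passed the test at 1 day.

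Complex II oxidises succinate and complex III passes electrons to cytochrome c. In complex II, 3 of 4 members fell at 1 day, 2 of 4 at 6 days and 0 of 4 in NGP (1 with an unadjusted p under 0.05). SDHB was at 107, 115 and 116 CPM under DMSO and at 90.7, 89.4 and 93.4 CPM under STM2457 at 1 day, a change of -0.33 ± 0.05 (adjusted p = 0.00049). In complex III, 2 of 9 fell and 1 rose at 1 day, 7 of 9 fell and 1 rose at 6 days, and 2 of 9 fell in NGP. The gene that rose at both Kelly times was UQCRFS1, the Rieske iron-sulphur protein. It was at 72.3, 70.0 and 76.2 CPM under DMSO and at 90.7, 94.5 and 99.8 CPM under STM2457 at 1 day, a change of 0.36 ± 0.06 (adjusted p = 0.00056). At 6 days it went from 89.0, 96.6 and 93.4 CPM to 117, 123 and 106 CPM (0.21 ± 0.07, adjusted p = 0.034). The 6-day change did not pass the test without any 1 DMSO replicate or without STM2457 replicate 2, when it was 0.17 to 0.23. The groups did not overlap at either time; in NGP the change was 0.17 ± 0.19 and the groups overlapped. Near-identical copies cover 39.6% of UQCRFS1, so its counts are uncertain. UQCRH did not pass the test at 1 day (-0.04 ± 0.05) and fell at 6 days (-0.63 ± 0.09, adjusted p = 6.9e-05), from 995, 1001 and 1026 CPM to 607, 830 and 671 CPM.

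In complex IV, the terminal oxidase, 5 of 13 tested nuclear members fell at 1 day, 8 of 13 at 6 days and 3 of 12 in NGP. COX7B, a small subunit needed for assembly, was at 117, 97.9 and 100 CPM under DMSO and at 85.8, 94.5 and 90.3 CPM under STM2457 at 1 day. At 6 days it went from 107, 135 and 117 CPM to 82.5, 72.0 and 78.1 CPM (-0.73 ± 0.08, adjusted p = 9.4e-06). In NGP it went from 143, 153 and 116 CPM to 59.8, 86.0 and 80.0 CPM (-0.94 ± 0.17, adjusted p = 0.0019). The groups did not overlap in any of these. The largest falls that passed the test in NGP were those of COX6C (-1.53 ± 0.30, adjusted p = 0.0032) and COX7C (-1.28 ± 0.25, adjusted p = 0.0033). DMSO replicate 2 bore on both. COX6C was at 203, 649 and 200 CPM under DMSO and at 106, 141 and 140 CPM under STM2457; COX7C was at 215, 536 and 221 CPM and then at 134, 120 and 170 CPM. In each gene DMSO replicate 2 was more than 2 times the other controls, and the groups did not overlap.

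Complex V, the ATP synthase, lost 11 of 18 tested nuclear members at 1 day, 12 of 18 at 6 days and 7 of 18 in NGP. ATP5PO, the OSCP subunit of the stalk, was at 49.2, 47.3 and 54.0 CPM under DMSO and at 36.4, 36.6 and 39.2 CPM under STM2457 at 1 day (-0.45 ± 0.08, adjusted p = 0.00054). In NGP it went from 82.2, 89.5 and 68.1 CPM to 29.1, 36.8 and 46.5 CPM (-1.17 ± 0.20, adjusted p = 0.00074). At 6 days in Kelly its groups overlapped, through 58.0 CPM in STM2457 replicate 1, and the change of -0.39 ± 0.17 did not pass the test. ATP5F1B fell by 0.29 ± 0.04 at 1 day and by 0.31 ± 0.06 at 6 days in Kelly; in NGP the change was -0.31 ± 0.15 (adjusted p = 0.30). ATP5IF1, which inhibits ATP hydrolysis by the synthase, did not pass the test at 1 day (0.03 ± 0.07) and went from 709, 845 and 786 CPM to 554, 490 and 426 CPM at 6 days (-0.78 ± 0.09, adjusted p = 1.2e-05).

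Of 81 nuclear members tested in each culture experiment, 5 fell in all 3, against 0.474% of all genes tested in each. They were ATP5MC3, a gene for the c-ring subunit of ATP synthase, with log2 changes of -0.39, -0.72 and -0.66 in 1-day Kelly, 6-day Kelly and NGP; COX7B (-0.24, -0.73 and -0.94); NDUFA4 (-0.22, -0.64 and -0.88); NDUFB6 (-0.32, -0.72 and -0.61); and NDUFS5 (-0.21, -0.66 and -0.63). ATP5MC3 was at 242, 230 and 237 CPM under DMSO and at 180, 186 and 186 CPM under STM2457 at 1 day. In NGP it was at 232, 238 and 223 CPM and then at 162, 148 and 151 CPM. Each group of ATP5MC3 kept within a narrow range and none overlapped. In the xenograft it was at 100 and 93.8 CPM under vehicle and at 43.3 and 35.9 CPM under STM2457, a change of -1.16 ± 0.29 that did not pass the test over all genes (adjusted p = 0.46).

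Several subunits have a paired isoform, and the difference between partners was not tested. NDUFA4L2, the hypoxia-inducible relative of NDUFA4, was at 27.1, 21.4 and 24.1 CPM under DMSO in Kelly at 6 days and at 3.49, 3.62 and 3.47 CPM under STM2457. This is a fold of 0.137 (log2 change -2.87 ± 0.15, adjusted p = 1.7e-09), against -0.64 ± 0.07 for NDUFA4. COX4I2, the hypoxia-linked isoform of COX4I1, was at 32.0, 35.2 and 32.7 CPM and then at 7.88, 10.2 and 6.94 CPM, a change of -2.05 ± 0.13 (adjusted p = 1.9e-08), against -0.38 ± 0.06 for COX4I1. For both isoforms every treated library lay far below every control. In NGP the changes of NDUFA4L2 and COX4I2 were -1.31 ± 0.54 and -1.58 ± 0.66, and neither passed the test. In the xenograft NDUFA4L2 was at 119 and 110 CPM under vehicle and at 112 and 89.0 CPM under STM2457. UQCRHL, a copy-like relative of UQCRH, fell at 6 days with it (-0.81 ± 0.19, adjusted p = 0.0051). COX7A2 fell at 6 days (-0.62 ± 0.07) and COX7A2L, a factor of supercomplex assembly, did not pass the test (-0.09 ± 0.07). COX6B1 fell at 1 day (-0.23 ± 0.07) and at 6 days (-0.59 ± 0.06), COX8A at 6 days only by this test (-0.64 ± 0.07), and COX6A1 at neither time (-0.02 ± 0.06 and -0.21 ± 0.11).

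In the xenograft 0 of 81 nuclear members were called by edgeR or by DESeq2, and 10 had an unadjusted p under 0.05. Their median log2 change was 0.10, with 44 positive. COX7B was at 37.7 and 46.3 CPM under vehicle and at 41.7 and 80.2 CPM under STM2457, and NDUFA4 at 68.4 and 69.6 CPM and then at 87.2 and 106 CPM, a change of 0.61 ± 0.26 (adjusted p = 0.56). Without 1 of the libraries, edgeR called 3 to 23 members of both genomes. With 2 libraries in a group and the lowest depth of the series, changes of the size seen in culture may not have been detectable.

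Lists of related genes give the setting for these counts. Of the 28 tested genes of mitochondrial RNA synthesis and processing, 5 rose and 2 fell in Kelly at 1 day, 3 rose and 3 fell at 6 days, and 0 rose and 2 fell in NGP. Of the assembly factors, 10 rose and 3 fell of 49 at 1 day, 1 rose and 12 fell of 49 at 6 days, and 0 of 47 were called in NGP (5 with an unadjusted p under 0.05). Mitochondrial ribosomal proteins rose in 19 and fell in 9 of 78 at 1 day, rose in 6 and fell in 25 of 77 at 6 days, and rose in 1 and fell in 4 of 77 in NGP. Cytosolic ribosomal protein mRNAs, which are short like the subunit mRNAs, fell in 32 of 83, 62 of 83 and 35 of 82, with medians of -0.10, -0.39 and -0.54. Of the 10 regulators of nuclear respiratory genes, 1 rose at 1 day, 1 rose and 1 fell at 6 days, and 0 were called in NGP.

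The falls at 6 days and at 1 day were compared directly. The difference between the changes at the 2 times passed the test, with a more negative change at 6 days, for 28 of 83 nuclear members; 0 went the other way. Of all 13773 genes tested, 4.73% had a more negative and 3.67% a more positive change, and 3020 had an unadjusted p under 0.05. Complex III gave 5 of 9 and complex IV 7 of 13, against 10 of 37 for complex I, 5 of 18 for complex V and 0 of 4 for complex II; NDUFA4 completes the 28. The largest differences that passed the test were those of COX4I2 (-1.47 ± 0.24, adjusted p = 0.0003), UQCRHL (-0.92 ± 0.21) and ATP5IF1 (-0.79 ± 0.12). For the 13 mitochondrial genes 0 were called (3 with an unadjusted p under 0.05, 0 by DESeq2), with a median difference of -0.60. Without 6-day STM2457 replicate 3 that median was -0.15 with 1 called down, without 6-day STM2457 replicate 1 there were 6 called down, and with no low-count filter also 6. Between NGP and Kelly at 6 days, 0 of 96 members differed in their change by edgeR and 2 differed by DESeq2. Unadjusted p was under 0.05 for 14 of the 96, against 1747 of all 13448 genes tested. Of all genes, 0.796% differed upward and 0.565% downward.

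The level of the members also differed between the lines. In DMSO inputs at 6 days, 12 of 13 mitochondrial genes were lower in NGP than in Kelly and 0 higher, with a median log2 difference of -0.94. Of 82 nuclear members, 14 were higher and 38 lower (median -0.25), where 29.1% of all genes were higher and 31.7% lower. MT-CYB was at 6048, 6004 and 6162 CPM in Kelly and at 1573, 2476 and 1925 CPM in NGP (-1.80 ± 0.16). MT-ND1 was the exception, at 2662, 2611 and 2677 CPM against 2669, 5238 and 3676 CPM (0.36, not called). The nuclear members highest in NGP relative to Kelly were NDUFC2 (1.23 ± 0.37), ATP5ME (1.17 ± 0.25) and COX5B (0.85 ± 0.09). Those lowest were COX4I2 (-2.84 ± 0.30), NDUFA3 (-1.99 ± 0.09) and NDUFB2 (-1.71 ± 0.12). NDUFC2 and ATP5ME were low in both lines, at means of 3.26 and 8.63 CPM in Kelly and 8.81 and 22.4 CPM in NGP. Other genes overlap 21.0% and 61.3% of their exon bases, so their counts are uncertain. The line and any batch of its libraries cannot be told apart.

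ATP5ME, a subunit of the membrane part of ATP synthase, and COX5B were both higher in NGP than in Kelly and fell in Kelly at 6 days (-0.88 ± 0.19 and -0.69 ± 0.08). Promoter activity was not measured. Their 250 bases upstream of the RefSeq start (GRCh38.p14) are printed because each holds the core of the site of NRF1, a regulator of nuclear respiratory genes, searched on both strands as GCATGCGC; the COX5B window also holds an ETS match, searched on both strands as CCGGAAG. Matches are in capitals. The 300-base promoter of ATP5ME holds an ETS match too, in bases outside the printed window. The ATP5ME window is chr4:674277-674526 on the minus strand and the COX5B window chr2:97645812-97646061 on the plus strand.
ATP5ME: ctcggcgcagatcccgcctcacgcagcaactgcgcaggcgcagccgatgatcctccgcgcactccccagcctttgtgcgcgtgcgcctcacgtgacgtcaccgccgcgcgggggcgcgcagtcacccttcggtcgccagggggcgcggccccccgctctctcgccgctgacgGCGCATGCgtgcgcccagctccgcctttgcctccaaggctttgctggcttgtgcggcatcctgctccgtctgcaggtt
COX5B: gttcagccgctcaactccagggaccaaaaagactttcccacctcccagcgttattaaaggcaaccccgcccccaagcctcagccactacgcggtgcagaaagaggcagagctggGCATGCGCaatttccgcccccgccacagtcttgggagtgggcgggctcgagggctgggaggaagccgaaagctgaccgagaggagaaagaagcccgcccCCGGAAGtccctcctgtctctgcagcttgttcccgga
Of 90 nuclear members, 73 matched the RefSeq promoter table, and 13 of these (17.8%) held the NRF1 core in 300 bases, against 3.05% of 35116 promoters. The 35116 are all entries of that table and are not limited to the 19923 genes counted here, whereas each member had 1 entry. The share was 16.0% for the list of mitochondrial RNA synthesis and processing, 14.3% for assembly factors, 8.70% for mitochondrial ribosomal proteins and 4.35% for cytosolic ribosomal proteins. An ETS match was found in 20 (27.4%), against 10.3% of all promoters, 33.3% of those of cytosolic ribosomal proteins and 42.0% of those of mitochondrial ribosomal proteins. A match of letters is a description of the window and not of binding.

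The m6A pulldown recovered both classes of member below their input in Kelly. RIP over input in DMSO compares the pulled-down fragments of a gene with its input. Of 13 mitochondrial genes, 12 were below input in Kelly at 1 day and 0 above (median log2 ratio -1.65), where 33.3% of all genes were above and 34.3% below. In Kelly at 6 days 12 were below and 0 above (median -4.28), against 28.8% above and 29.2% below over all genes. The Kelly 1 day input and RIP libraries lie in separate folders of the authors' file headers, so the ratio and the folder cannot be told apart there. MT-CO1 was at 6652, 5963 and 6277 CPM in the inputs and at 756, 942 and 864 CPM in the RIP libraries at 1 day (-2.83 ± 0.09). At 6 days it was at 10096, 10437 and 10142 CPM and at 389, 413 and 113 CPM (-5.12 ± 0.48). Every RIP library lay several-fold below every input.

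In NGP the mitochondrial genes were much closer to their input. There 2 of 13 were above and 6 below, with a median of -0.43, where 29% of all genes were above and 26.5% below. This closeness was not particular to mitochondrial genes. The mean share of cytosolic ribosomal proteins went from 8.28% of DMSO inputs to 0.825% of RIP libraries in Kelly at 1 day. In NGP it went only from 13.7% to 5.67%. MT-ATP8 in NGP was at 300, 566 and 372 CPM in the inputs and at 879, 865 and 1140 CPM in the RIP libraries (1.12 ± 0.27, adjusted p = 0.0014), with no overlap. MT-ATP6, which overlaps it, was the other gene above input (0.68). MT-ATP8 shares 22.2% of its bases with MT-ATP6, and near-identical copies cover all of MT-ATP6, so the separate ratios of these 2 genes are uncertain. MT-ATP8 also had the highest ratio of the 13 in the other experiments, at 0.10 ± 0.08 (1-day Kelly), -1.87 ± 0.79 (6-day Kelly) and 0.75 ± 0.60 (xenograft), none of which passed the test. Its sequence, printed above, holds none of the searched consensus letters. In the xenograft MT-CO3 and MT-ND3 were below input and 0 of 13 above, where 1.61% of all genes were above and 2.15% below. The vehicle RIP libraries of the xenograft held 4.78% and 1.02% of fragments on mitochondrial genes, a difference larger than that between treatments.

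**Figure D4:**
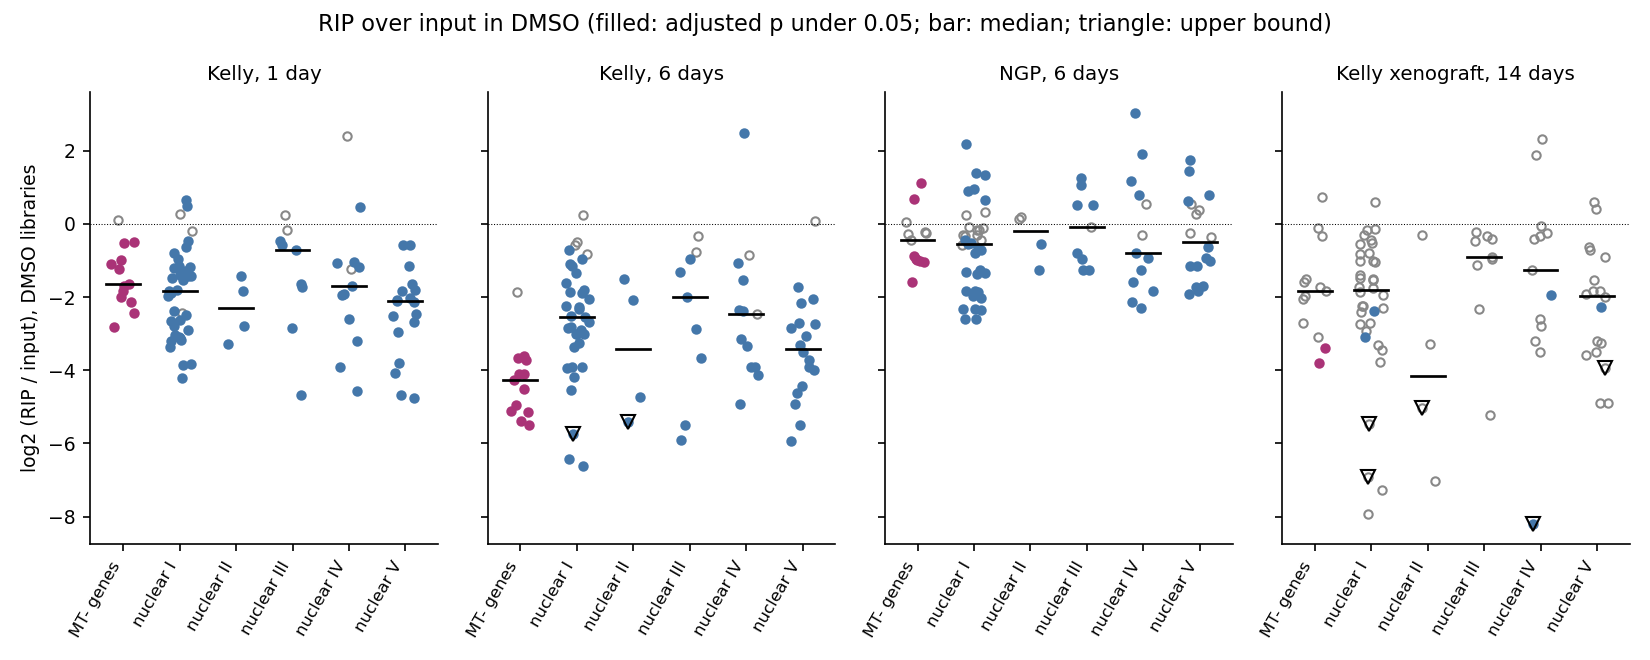
Log2 ratio of RIP over input in DMSO (vertical axis) for every tested member by complex and genome of origin, 1 panel per experiment; filled points passed the test, bars are medians, downward triangles are upper bounds for genes at 0 in all DMSO RIP libraries, and NDUFA4, NDUFA4L2 and read-through rows are not drawn. Nuclear medians lie at -1.84 and -2.77 in the Kelly panels and at -0.54 in NGP, where points lie on both sides of 0.

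In 1-day Kelly, 72 of 83 nuclear members were below input and 3 above, with a median of -1.84 against -0.07 for all genes. At 6 days 71 of 82 were below and 1 above (median -2.77). All 18 tested nuclear members of complex V were below at 1 day, as were 32 of 37 of complex I, 4 of 4 of complex II, 7 of 9 of complex III and 10 of 13 of complex IV. The lowest at 1 day were ATP5MC2 (-4.75 ± 0.23), UQCRC1, a core protein of complex III (-4.68 ± 0.13), and ATP5F1A, the alpha subunit of ATP synthase (-4.67 ± 0.24). ATP5F1A was at 541, 560 and 561 CPM in the inputs and at 18.2, 19.5 and 25.3 CPM in the RIP libraries. NDUFB8 and SDHD had 0 counts in all 3 DMSO RIP libraries at 6 days and were at least 53.3-fold and at least 42.6-fold lower than input, against a floor of 3 counts over the group. In the xenograft COX8A had 0 counts in both, at least 293-fold lower than input. NDUFB8 and SDHD were at only 4.92 and 3.92 CPM in the pooled DMSO inputs at 6 days. Other genes overlap 48.5% of the exon bases of NDUFB8, 11.4% of SDHD and 35.4% of COX8A.

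The 3 nuclear members above input in Kelly at 1 day were NDUFC1, NDUFS5 and COX6A1. NDUFC1, a small complex I subunit, was at 13.5, 23.5 and 20.3 CPM in the inputs and at 31.9, 28.6 and 25.3 CPM in the RIP libraries (0.64 ± 0.25, adjusted p = 0.036). NDUFS5 was at 261, 247 and 241 CPM and at 316, 344 and 344 CPM (0.48 ± 0.07). COX6A1 was at 175, 198 and 169 CPM and at 268, 248 and 208 CPM (0.48 ± 0.09), with 41.7% of its bases in near-identical copies. None of the 3 pairs of groups overlapped. At 6 days NDUFC1 and NDUFS5 were below input (-0.95 ± 0.31 and -0.72 ± 0.19), and the 1 member above was COX6B2, the testis-type isoform, at 2.56, 0.704 and 2.35 CPM in the inputs and 11.4, 6.26 and 14.7 CPM in the RIP libraries.

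In NGP 18 of 83 nuclear members were above input and 43 below, with a median of -0.54. COX6C was at 203, 649 and 200 CPM in the inputs and at 2030, 3368 and 3899 CPM in the RIP libraries (3.05 ± 0.36, adjusted p = 2.9e-07). In Kelly at 6 days the same gene was at 189, 385 and 224 CPM in the inputs and at 40.5, 75.9 and 42.0 CPM in the RIP libraries (-2.39 ± 0.49). COX7C was at 215, 536 and 221 CPM and at 803, 1751 and 1362 CPM in NGP (1.91 ± 0.34), and at 214, 343 and 250 CPM and at 7.56, 15.2 and 5.03 CPM in Kelly at 6 days (-4.91 ± 0.53). In both genes the RIP libraries lay wholly above the inputs in NGP and wholly below them in Kelly at 6 days. The Kelly xenograft did not share this: the ratio there was 2.32 for COX6C and -0.06 for COX7C, neither called above input. The difference between the lines was not tested. NDUFA7 (2.18 ± 0.67) was also above input in NGP, at about 1 CPM in the inputs. The lowest in NGP were NDUFS8 (-2.60 ± 0.18), NDUFS7 (-2.59 ± 0.22), both iron-sulphur subunits of complex I, and NDUFB11 (-2.35 ± 0.17). Across 12808 nuclear genes the NGP ratio was lower at higher GC content, the share of G and C in the mRNA (Spearman correlation -0.495). Over 83 nuclear members the correlation was -0.452. In Kelly the values over all nuclear genes were 0.059 at 1 day and 0.101 at 6 days, and over members -0.071 and 0.099. Whether GC content bears on the contrast between the lines was not tested. In the xenograft 5 of 82 nuclear members were below input and 0 above (median -1.78), COX4I1 (-1.95 ± 0.44) and NDUFS8 (-3.09 ± 0.54) among them. With both genomes, these 7 calls became 0 to 2 without an input or vehicle RIP library and 32 or 33 without a STM2457 RIP library.

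Outside the members, short mRNAs as a class had low ratios, and the members lay below other genes in each class of length in Kelly. Among genes with an mRNA under 1000 bases, the median log2 ratio was -1.75 for 50 members and -1.09 for 670 other genes in Kelly at 1 day, and -2.46 for 49 members and -1.55 for 645 others at 6 days. From 1000 to 2000 bases the medians were -2.81 for 16 members and -0.75 for 2328 others at 1 day. From 2000 to 4000 bases they were -2.08 for 9 members and -0.02 for 4812 others at 1 day. Above 4000 bases they were -2.22 for 8 members and 0.33 for 5458 others at 1 day, and -2.86 and 0.39 at 6 days. The long members thus had low ratios too. In NGP the members under 1000 bases, at -0.63, were close to the others at -0.72. From 1000 to 2000 bases the NGP medians were -0.74 for 16 members and -0.41 for 2214 others, from 2000 to 4000 bases 0.15 for 9 and 0.03 for 4585, and above 4000 bases -0.15 for 8 and 0.38 for 5282. Cytosolic ribosomal proteins lay lower than the respiratory subunits in each experiment, with medians of -3.60, -4.39, -1.49 and -3.24 in the same order (1-day Kelly, 6-day Kelly, NGP, xenograft).

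RIP over input was higher with STM2457 for both classes in Kelly at 1 day. The ratio is relative, because each library is scaled to its own fragments. A rise therefore cannot separate more recovery of a gene from less recovery of other genes, and which of these applied was not tested. The mitochondrial share of the RIP libraries went from 0.794%, 0.906% and 0.920% to 2.30%, 2.48% and 2.40%, and the nuclear share from 0.320%, 0.317% and 0.310% to 0.582%, 0.597% and 0.566%. All 13 mitochondrial genes passed the test upward, by 1.25 to 2.01 (median 1.44). Of 83 nuclear members, 56 rose and 0 fell (median 1.12). Over all genes 9.53% rose and 7.62% fell, with a median of -0.03. MT-ND3 of complex I gave the highest of the mitochondrial values, 2.01 ± 0.11 (adjusted p = 5.5e-07). MT-ATP8 gave the lowest, 1.25 ± 0.11, from 455, 515 and 547 CPM in the DMSO RIP libraries to 1243, 1321 and 1440 CPM, with no overlap.

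**Figure D5:**
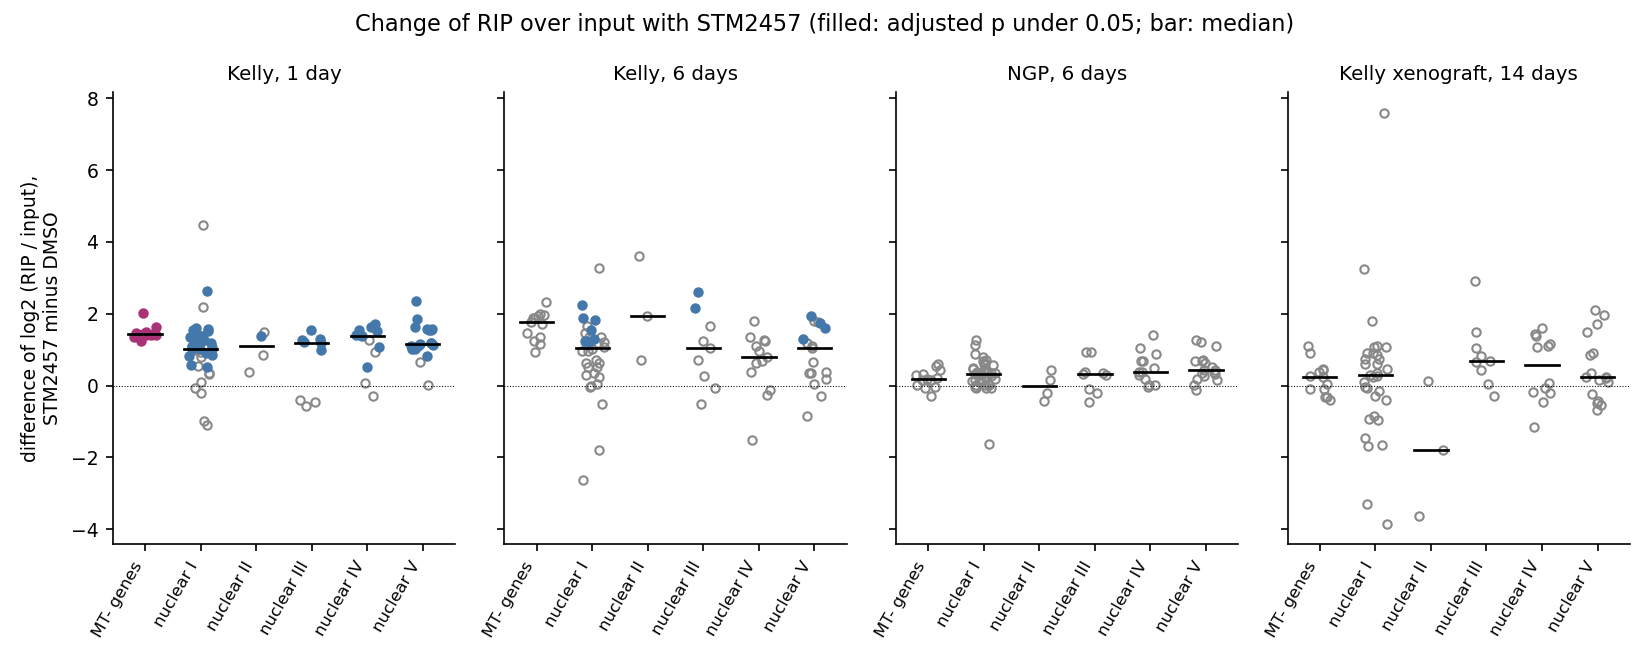
Change of RIP over input with STM2457 (log2, vertical axis) for every tested member by complex and genome of origin, 1 panel per experiment; filled points passed the test, bars are medians, and members with a RIP group at 0 (4 in Kelly at 6 days, 7 in the xenograft), NDUFA4, NDUFA4L2 and read-through rows are not drawn. In Kelly at 1 day the mitochondrial genes lie between 1.25 and 2.01 and 74 of 83 nuclear members tested are above 0.

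By complex, 23 of 37 nuclear members of complex I rose in this ratio at 1 day, 1 of 4 of complex II, 6 of 9 of complex III, 9 of 13 of complex IV and 16 of 18 of complex V. ATP5F1B was at 69.1, 60.5 and 60.1 CPM in the DMSO RIP libraries and at 115, 93.8 and 92.5 CPM in the STM2457 RIP libraries, while its input fell (1.03 ± 0.12, adjusted p = 9.3e-05). NDUFS5, which was above input under DMSO, went from 316, 344 and 344 CPM to 785, 845 and 747 CPM (1.52 ± 0.10). The largest values that passed the test were those of NDUFC2 (2.64 ± 0.69), ATP5MG (2.34 ± 0.45) and ATP5F1C (1.85 ± 0.25). NDUFC1 went from 31.9, 28.6 and 25.3 CPM to 11.7, 9.84 and 16.2 CPM, a change of -1.10 ± 0.35 that did not pass the test (adjusted p = 0.051). UQCRFS1, the subunit whose input rose, had a ratio change of -0.41 ± 0.17 (adjusted p = 0.13). Cytosolic ribosomal proteins rose in 68 and fell in 2 of 83 (median 1.19), assembly factors rose in 5 and fell in 6 of 49.

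In Kelly at 6 days 13 of 82 nuclear members rose in the ratio and 0 fell (median 0.99, and 1.03 without 4 members at 0 in a RIP group), where 1.26% of all genes rose, 0.803% fell and the median of all genes was 0.20. UQCRC1 rose most (2.59 ± 0.33, adjusted p = 0.014), from 6.18, 2.77 and 4.65 CPM in the DMSO RIP libraries to 21.4, 16.3 and 15.8 CPM. NDUFA1 (2.24 ± 0.48) and UQCRC2 (2.16 ± 0.45) followed. The 13 mitochondrial genes were all positive (0.93 to 2.32, median 1.76) and 0 were called by edgeR; unadjusted p was under 0.05 for 8, and 2 were up by DESeq2. This count of members did not hold: it was 0 without any 1 of the 6 input libraries, 5 without DMSO RIP replicate 3, 7 without DMSO RIP replicate 2, 29 without STM2457 RIP replicate 1, 5 with scaling on nuclear genes and 27 by DESeq2. Without any 1 input library no gene at all was called, of 13614 to 13630 tested, where 1706 to 1777 had an unadjusted p under 0.05. The medians were then 0.91 to 1.06 for nuclear and 1.43 to 2.05 for mitochondrial members.

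In NGP 0 of 96 members were called for a change in the ratio by edgeR or by DESeq2, and 0% of all genes rose or fell (764 with an unadjusted p under 0.05). The nuclear median was 0.36, with 71 of 83 positive, and the mitochondrial median 0.17. In simulated data with a true log2 change of 1, this edgeR test recovered 2.51% of changed genes in NGP. It recovered 24.62% in Kelly at 1 day and 0% in Kelly at 6 days and in the xenograft. The changed genes were drawn at random from all genes tested, so these rates need not hold for the members. A lack of calls in NGP or the xenograft cannot show that the ratio was unchanged or differed from Kelly. In the xenograft 0 of 95 were called by edgeR and 1 by DESeq2, and unadjusted p was under 0.05 for 4; 0% of all genes rose or fell (809 with an unadjusted p under 0.05), and the medians were 0.25 for nuclear and 0.24 for mitochondrial members. The RIP libraries there disagreed within groups: MT-CYB was at 4493 and 1175 CPM under vehicle and at 1618 and 4666 CPM under STM2457, so that the treatments overlapped fully.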

How the data were processed

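The deposited values are raw fragment counts per gene name, 1 table per library: per the file headers, the authors counted read pairs over exons of protein-coding genes of GENCODE 33 with featureCounts 1.5.3, with no strand, overlap or multimapping option. The submitters' processing notes also name Trimmomatic 0.36, HISAT2 2.1.0 and GRCh38. Fragments shared by overlapping exons are unassigned, and multiply mapped ones were not requested.

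Counts were tested with the quasi-likelihood test of edgeR 4.0.16 (R 4.3.3; TMM scaling, filterByExpr with a minimum count of 10 and a minimum total of 15, Benjamini-Hochberg adjustment over all genes, 0.05, two-sided), after checks on simulated data. RIP over input and its change with STM2457 are contrasts of 1 model per experiment. DESeq2 1.42.0, other scalings, no low-count filter, the replicate number as a block and leaving out each library were alternatives. TPM used the length of all annotated exons. Members and gene lists were chosen with earlier results of these data known. Genes named were the 13 mitochondrial genes, the 3 called nuclear members with the largest rise and fall per comparison, those called in all culture experiments, the extremes of level per complex and of RIP over input, and isoform pairs; other named genes, and the 1 day against 6 day levels, were chosen after their values were seen.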

Additional observations from a re-analysis of the deposited data

Results flagged for a closer look

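The change of the input with STM2457 differed between 6 days and 1 day in Kelly for 28 members, by the edgeR test of the difference itself, and each of the 28 had the more negative change at 6 days. Among the named members, the difference in log2 change was -1.47 for COX4I2, -0.92 for UQCRHL, -0.79 for ATP5IF1, -0.73 for NDUFB2, -0.67 for ATP5ME and -0.65 for NDUFA1. It was -0.58 for UQCRH, -0.54 for COX8A, -0.48 for COX7A2, -0.47 for COX5B, -0.47 for NDUFA3 and -0.47 for COX7B. It was -0.43 for NDUFS7, -0.40 for NDUFA4, -0.38 for NDUFB6, -0.31 for ATP5MC3 and -0.27 for COX4I1. The 2 times lie in separate folders of the file headers, so time and batch cannot be told apart.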

How the results depend on the processing

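Over the named genes, 4634 comparisons with an alternative kept direction and call, 333 lost the call, 306 gained it and 5 reversed. The reversals were MT-ATP8 in the input of Kelly at 6 days (-0.24) and in its difference from 1 day (-0.41), both without STM2457 input replicate 1; ATP5F1B in the change of RIP over input of the xenograft (-4.71, without STM2457 RIP replicate 2); and COX6C (-0.59) and COX7C (-0.49) in the level of NGP against Kelly, without NGP DMSO input replicate 2.

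The count of members called for the change of RIP over input in Kelly at 6 days (13) was 5 with scaling on nuclear genes and 27 by DESeq2. In NGP this count was 1 with no low-count filter. In the xenograft, the input gave 8 calls by DESeq2 and 7 with no low-count filter, RIP over input gave 32 and 23 against 7, and its change with STM2457 gave 1 by DESeq2. The difference between NGP and Kelly at 6 days gave 2 by DESeq2. The cause was not tested.

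Leaving out 1 library at a time, the input count ranged from 28 to 45 in Kelly at 1 day (28 without STM2457 replicate 1), from 53 to 75 at 6 days, from 2 to 20 in NGP (2 without STM2457 replicate 1, 9 without DMSO replicate 2) and from 3 to 23 in the xenograft (7 and 3 without DMSO replicates 1 and 2, 23 and 14 without STM2457 replicates 1 and 2). RIP over input ranged from 86 to 88, 81 to 87, 57 to 70 and 0 to 33 (32 and 33 without a STM2457 RIP library of the xenograft), and its change from 58 to 73, 0 to 29, 0 to 0 and 0 to 2. The differences ranged from 20 to 42 (6 days against 1 day) and 0 to 3 (NGP against Kelly), and the levels from 52 to 72.

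Replicate numbers did not pair the samples: same-number correlations ran from -0.322 to 0.251. With the replicate block, members called were 25 against 16 in the NGP input, 0 against 13 for the change of RIP over input in Kelly at 6 days, and 7 against 0 (input) and 17 against 7 (RIP over input) in the xenograft. Mitochondrial genes called were 1 against 5 at 1 day, 8 against 1 at 6 days and 1 against 0 for the difference between the Kelly times; UQCRFS1 at 6 days (0.21) lost its call.

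With the canonical transcript as length, chosen after seeing the data, median TPM of the mitochondrial genes was 4892.327, 5043.042, 3449.307 and 9742.028 in the order of the report, and of the nuclear members 216.828, 191.117, 177.704 and 108.917. Over nuclear genes only, the nuclear median was 159.299 and 183.044 TPM in Kelly and 96.205 in the xenograft. The 2.14 M fragments of the shallowest xenograft input limit what could be called there.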
